A study of Mus musculus with 4 samples.

Results

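The semaphorins, plexins and neuropilins were examined in mouse hearts at postnatal day 7 (P7). The Ctrl group had 2 libraries, WH7 and WH8, and the miR-128OE group had 2, WH9 and WH10. The members were the autosomal protein-coding genes whose symbols begin with Sema3 to Sema7 or Plxna to Plxnd, or are *Nrp1* or *Nrp2*. This rule gave 29 of the 24454 genes in the count table, namely 20 semaphorins, 7 plexins and 2 neuropilins. It uses names, gene type and positions and no measured value, but it was set with earlier results of these data known. The X-linked plexins *Plxna3* and *Plxnb3* fall outside it.

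Ctrl mice carried the miR-128TetRE allele, a *miR-128* transgene behind a tetracycline-responsive element. miR-128OE mice carried the same allele together with α-MHC-tTA, which drives the tetracycline transactivator from the promoter of α-myosin heavy chain, a gene of cardiomyocytes (CMs). In this Tet-off system doxycycline keeps the transgene silent, and its withdrawal turns on *miR-128* in CMs. The counts are from heart tissue and not from isolated CMs. The paper does not say whether whole hearts or parts of them were taken for these libraries. The sources used here do not give the doxycycline schedule of these P7 mice, the number of hearts behind a library, or whether replicates were separate animals, so p-values measure the spread between these libraries alone.

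Semaphorins are guidance proteins first known from growing axons, and plexins are their receptors. Class 3 semaphorins are secreted, classes 4 to 6 span the membrane, and class 7 is held on it by a lipid anchor. Most class 3 semaphorins bind a neuropilin, which joins an A-type plexin or *Plxnd1* to form the receptor, while many membrane-bound semaphorins bind plexins directly. Plexins act on small GTPases and thereby on adhesion and the cytoskeleton. In the heart the system is known for patterning of the outflow tract, of vessels and of sympathetic nerves, and *Nrp1* also serves as a co-receptor for VEGF.

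The transgene is *miR-128*, so its sequence and its best matches among the members are shown first. The mature mmu-miR-128-3p is encoded by *Mir128-1* (chr1:128202404-128202424, plus strand) and *Mir128-2* (chr9:112118644-112118664, minus strand; RefSeq, GRCm38.p6), and both give the same 21 bases. Capitals mark the seed, bases 2 to 8, in the miRNA and the seed match in each 3′UTR. The listed 3′UTR stretches, from GENCODE M21 on GRCm38, are the 8mer matches of the members and, for contrast, the 7mer-m8 match of *Nrp2*, which also has a 7mer-A1 match.
mmu-miR-128-3p: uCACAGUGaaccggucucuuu
Plxnb1 8mer: ccctcacagaaCACTGTGAtagaagatgtc
Plxna2 8mer: actcatgggcaCACTGTGAtcataccgaaa
Sema6d 8mer: atttacctgtcCACTGTGAatcaaagcctg
Nrp2 7mer-m8: agagactgattCACTGTGgaaggggggga

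The matches lie at chr9:109119865-109119872 (*Plxnb1*, plus strand), chr1:194815323-194815330 (*Plxna2*, plus strand), chr2:124666315-124666322 (*Sema6d*, plus strand) and chr1:62796563-62796569 (*Nrp2*, plus strand). The *Plxnb1* match starts at base 1921 of a 3′UTR of 1973 bases, so it lies next to the end of the transcript.

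*Xist* and the Y-linked genes separated the groups, and this bears on every comparison that follows. *Xist*, counted 14543 and 11339 times in Ctrl, was counted 94 and 132 times in miR-128OE libraries. The Y-linked *Ddx3y* had 13 and 7 counts against 1442 and 1768. The genotype therefore coincides with the sex of the mice, and effects of the 2 cannot be told apart. The transgene could not be checked well in these counts, since *Mir128-1* was at 0 throughout and *Mir128-2* had 0, 0, 2 and 10 counts in WH7, WH8, WH9 and WH10. The Ctrl libraries also differed from each other: 5 atrial genes, among them *Nppa*, summed to 5959 CPM (counts divided by library size) in WH7 and 719 in WH8, with 2195 and 2813 in the miR-128OE libraries. The libraries held 8096870 to 14359838 counts in all. The floor of detection, taken as 3 counts, was 0.214 to 0.36 CPM and covers counting error only.

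At P7 the heart expressed nearly the whole family. Of the 29 members, 27 had enough reads to be tested. *Sema3e*, a ligand that binds *Plxnd1* without a neuropilin, had 8, 2, 7 and 8 counts in WH7, WH8, WH9 and WH10. *Sema4f*, a membrane-bound semaphorin, had 6, 3, 5 and 7. Both lay close to the floor in all libraries, and no difference was detectable at this depth.

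Levels can be set beside each other only per length, as CPM per kb of exon. *Nrp1* led the members with 152 and 139.9 in Ctrl hearts, on an exon length of 3597 bases. The RefSeq gene extends past the end of that GENCODE model, and a longer model would lower this level and the neuropilin sum given further on. It was followed by *Plxnd1*, a plexin of endothelial cells, with 54.8 and 59.0. The next were *Sema7a* with 24.2 and 26.7 and then *Plxnb2*, *Plxnb1* and *Sema6d*, whose Ctrl levels lay between 15.9 and 19.4 and overlapped each other. *Sema7a*, the lipid-anchored semaphorin, thus had the highest level per length among the ligands in all 4 libraries. At the other end of the order, 7 tested members (*Sema3d*, *Sema4d*, *Sema5b*, *Sema4g*, *Plxnc1*, *Sema4a* and *Sema3a*) had mean Ctrl levels under 2 CPM per kb.

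**Figure D1:**
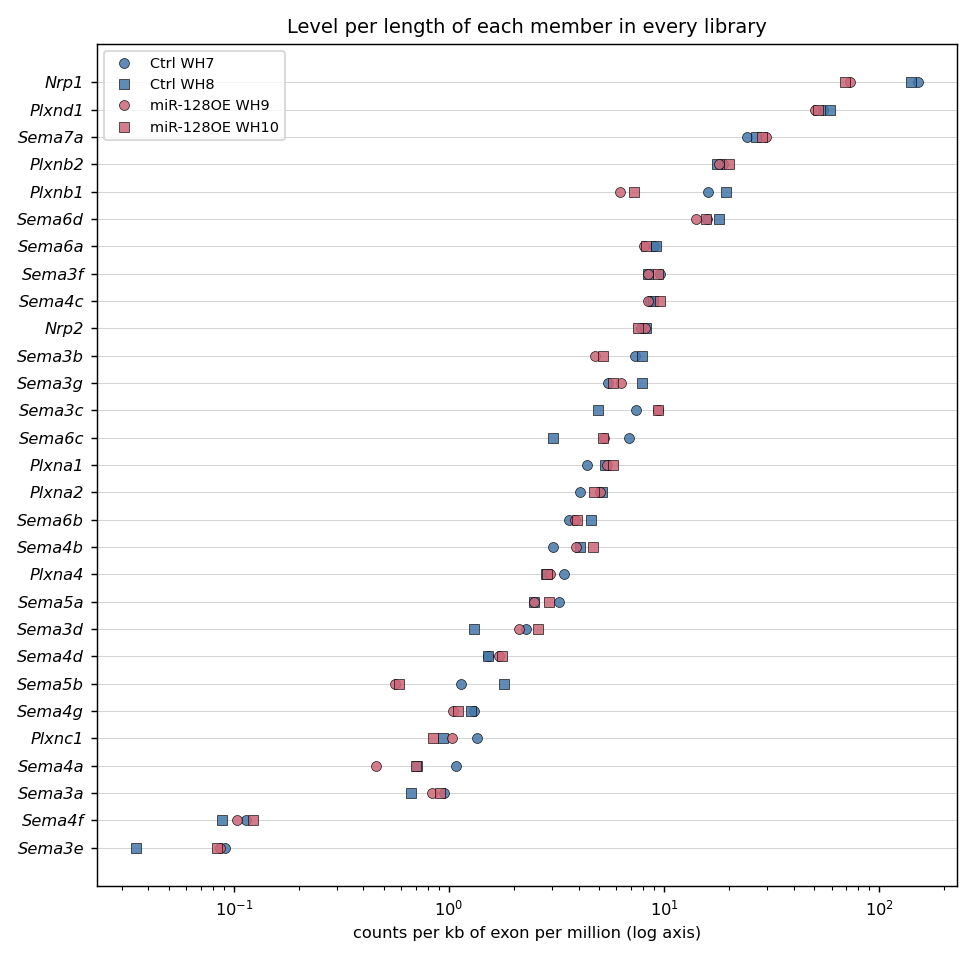
Level of each of the 29 members in every library, as CPM per kb of exon on a log axis, with members in the order of their Ctrl mean. Blue marks Ctrl libraries and red marks miR-128OE libraries, circles the first library of a group and squares the second. Most rows show the 4 points close together. Of the members that passed the test given below, Nrp1, Plxnb1, Sema3b and Sema5b show both red points left of both blue points, and Sema3c shows them to the right. Of the members that did not pass, 5 show both red points to the left and 3 to the right.

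Summed over a family, the level per length of the ligands was 113 in both Ctrl libraries and 112 and 116 in the miR-128OE libraries. The 7 plexins summed to 103 and 110.2 in Ctrl and to 88.7 and 93.2 in miR-128OE libraries. The 2 neuropilins summed to 160 and 148 in Ctrl and to 81.6 and 77.0 in miR-128OE libraries. The ligand sums of the groups overlapped, and the plexin and neuropilin sums did not. *Nrp1* made up on average 94.8% of the neuropilin sum in Ctrl and 90.1% in miR-128OE libraries. Among the plexins, *Plxnb1* had a mean level of 17.7 in Ctrl and 6.76 in miR-128OE libraries. Of the 9 receptors, 7 did not pass the test given below. Groups without overlap were common, with miR-128OE above in 33.7% and below in 34.4% of all tested genes. These sums were not tested.

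Between genotypes, 5 of the 27 tested members passed the test. In edgeR's quasi-likelihood fit, with p-values adjusted after Benjamini and Hochberg over 14266 genes and a threshold of 0.05, 1 member was higher in miR-128OE hearts (3.7% of those tested) and 4 were lower (14.8%). Over all tested genes the shares were 16.5% higher and 15.0% lower. The share of lower members was therefore near that of all genes and the share of higher members was below it, so the family is described by its single genes and not as a group. The median log2 fold change was −0.06 over the members and −0.01 over all tested genes, with 11 members above 0 and 16 below. The 1 higher and 4 lower calls were the same by DESeq2 and by edgeR's likelihood ratio and exact tests.

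**Figure D2:**
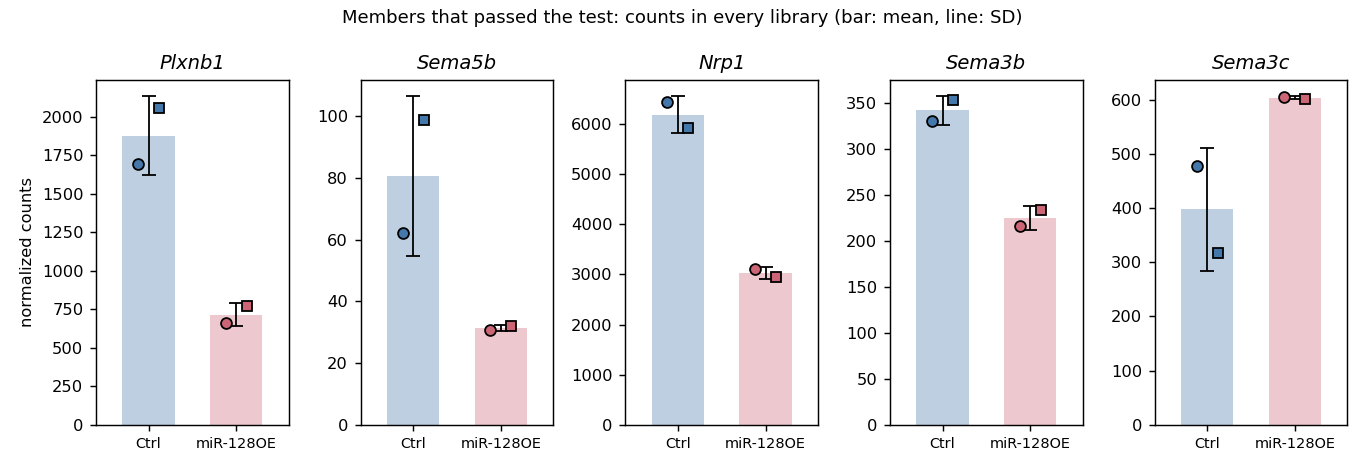
Normalized counts of the 5 members that passed the test, each panel on its own axis from 0, with a circle for the first and a square for the second library of a group, bars at the mean and lines for the SD (n = 2 libraries a group). Both miR-128OE points lie below both Ctrl points for Plxnb1, Sema5b, Nrp1 and Sema3b and above them for Sema3c.

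*Plxnb1*, the receptor of *Sema4d*, was lower in miR-128OE hearts. Its normalized counts (scaled to a common library size) were 1695 in WH7 and 2058 in WH8, both Ctrl, and 661 in WH9 and 771 in WH10, both miR-128OE. Both miR-128OE libraries lay below both Ctrl libraries, at 38.3% of the Ctrl mean. The log2 fold change was −1.38 (SE 0.11, 95% interval −1.64 to −1.13, adjusted p = 7.28e-05). By p-value *Plxnb1* (chr9:109093849-109119915) stood at place 92 of all tested genes and at place 27 among the genes with a negative change.

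*Plxnb2*, the other B-type plexin among the members, showed no such shift. It had 1446 and 1364 normalized counts in Ctrl and 1388 and 1546 in miR-128OE libraries, which overlap, and its log2 fold change was 0.06 (SE 0.09, 95% interval −0.13 to 0.25, adjusted p = 0.617). Per length, *Plxnb1* stood at 0.855 and 1.10 times the level of *Plxnb2* in Ctrl libraries and at 0.348 and 0.364 times that level in miR-128OE libraries. *Plxnb1* made up 15.6% and 17.6% of the summed plexin level in Ctrl and 7.03% and 7.80% in miR-128OE libraries. This pair of receptors, like the 3 pairs of relatives described further on, was chosen after its values were seen, so the ratios are given without a test.

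*Nrp1*, the most abundant member, fell to 48.9% of its Ctrl mean. It had 6446 and 5925 normalized counts in Ctrl and 3112 and 2944 in miR-128OE libraries. The miR-128OE values lay far below both Ctrl values, with a gap much wider than that between replicates. The log2 fold change was −1.03 (SE 0.09, 95% interval −1.22 to −0.84, adjusted p = 7.58e-05), which placed *Nrp1* (chr8:128358591-128505476) at rank 95 of all tested genes by p-value and at rank 29 among those with a negative change.

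*Nrp2*, the neuropilin that class 3 ligands such as *Sema3f* bind, had 953 and 1009 normalized counts in Ctrl and 992 and 919 in miR-128OE libraries. These values overlap, and the log2 fold change was −0.04 (SE 0.09, 95% interval −0.23 to 0.15, adjusted p = 0.776). The ratio of *Nrp1* to *Nrp2* per length was 19.5 and 16.9 in Ctrl libraries and 9.05 and 9.24 in miR-128OE libraries. With the longest transcript as the length the same ratio was 12.6 and 11.0 against 5.86 and 5.99, so its size depends on the gene model. A gene's length is the same in all libraries, so the choice of model cannot alter the contrast between groups. The share of *Nrp2* in the neuropilin sum was 4.87% and 5.57% in Ctrl and 9.95% and 9.76% in miR-128OE libraries. In bulk hearts, fewer cells of a type and less RNA per cell cannot be told apart, which holds for each of these changes.

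Markers of the cells in which *Nrp1* and several plexins are known best were set beside this result. The summed level of 12 endothelial markers was 2526 to 2564 CPM in Ctrl and 2611 to 2678 in miR-128OE hearts. Of these markers 3 were higher, 2 were lower and 7 did not pass the test, with a median log2 fold change of −0.02, and none was at 0. *Pecam1* was higher by 0.42 on the log2 scale (adjusted p = 0.00519) and *Cdh5* by 0.27 (adjusted p = 0.0464), while *Egfl7* was at −0.36 (adjusted p = 0.0117) and *Emcn* at −0.29 (adjusted p = 0.0383). *Eng*, also called higher, stood at 0.3, with an adjusted p that rounds to 0.05, the threshold itself. DESeq2 called 3 of the 12 markers higher and 1 lower, and the likelihood ratio and exact tests each called 2 higher and 2 lower. By edgeR's quasi-likelihood test 16.5% of all tested genes were higher and 15.0% lower. *Egfl7*, *Emcn* and *Eng* are named after their values were seen. Of the 12 endothelial markers, 5 had a log2 fold change above 0 and 7 below 0. The part of endothelial cells in the change of *Nrp1* was not tested. *Plxnd1*, the other abundant receptor of this system, had 4457 and 4798 normalized counts in Ctrl and 4070 and 4211 in miR-128OE libraries. Its groups did not overlap, but the log2 fold change of −0.16 (SE 0.08, 95% interval −0.34 to 0.03, adjusted p = 0.169) did not pass the test.

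**Figure D3:**
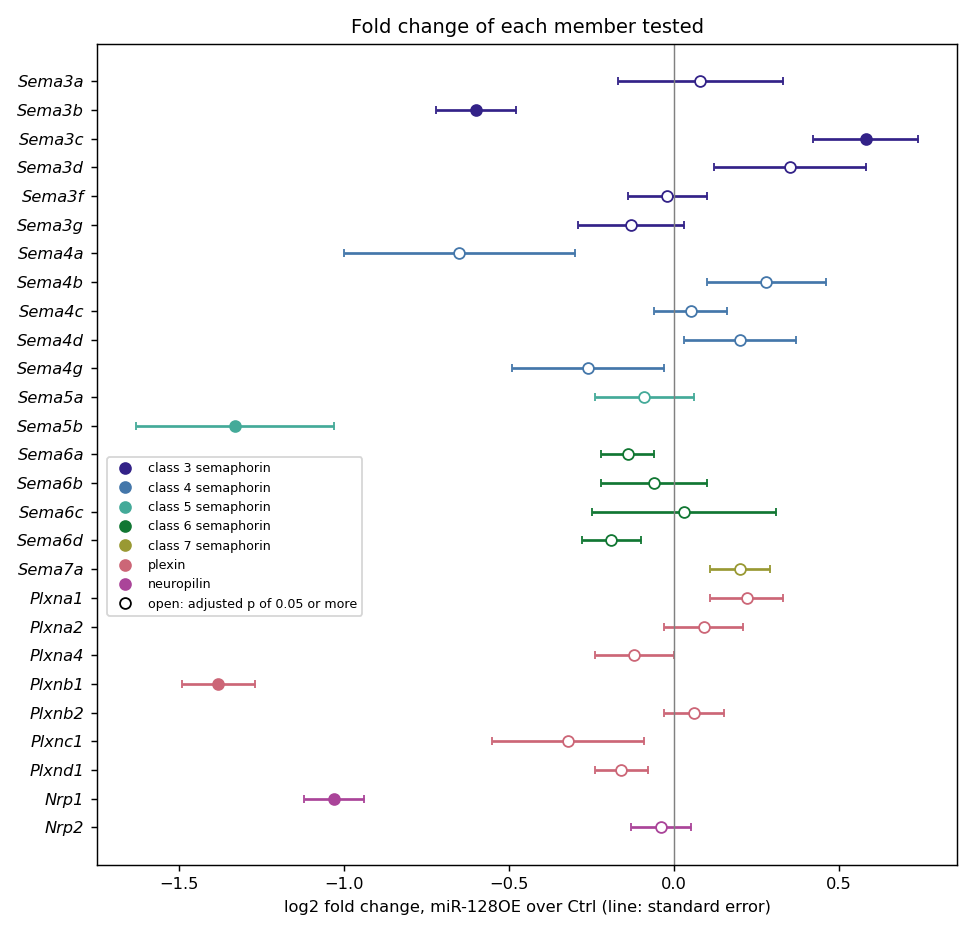
Log2 fold change of miR-128OE over Ctrl hearts for the 27 members tested, with lines for the standard error, colour for the family or class and filled points for an adjusted p under 0.05. Plxnb1 at −1.38, Sema5b at −1.33, Nrp1 at −1.03 and Sema3b at −0.60 lie left of 0, Sema3c at 0.58 lies right of it, and the open points lie between −0.65 and 0.35.

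The remaining plexins did not pass the test. Among A-type plexins, which pair with neuropilins, *Plxna1* had a log2 fold change of 0.22 (95% interval −0.03 to 0.47), *Plxna2* of 0.09 (−0.17 to 0.35) and *Plxna4* of −0.12 (−0.38 to 0.15). *Plxnc1*, the plexin that binds *Sema7a*, was low, with 116, 80.6, 88.1 and 72.3 normalized counts in WH7, WH8, WH9 and WH10. Its log2 fold change of −0.32 had a 95% interval of −0.85 to 0.21, so changes of more than 1.5-fold downward lie within its error.

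The class 3 ligands moved in both directions. *Sema3b*, a secreted ligand of the neuropilins, had 331 and 353 normalized counts in Ctrl and 216 and 234 in miR-128OE libraries. Both miR-128OE values lay below both Ctrl values, and the gap between groups exceeded that within either. The log2 fold change was −0.60 (SE 0.12, 95% interval −0.87 to −0.33, adjusted p = 0.00537). The call was lost without miR-128OE library WH9 (adjusted p = 0.0767) and in the test that requires a 1.5-fold change.

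*Sema3f* lies 72.3 kb from *Sema3b* on chromosome 9 (chr9:107681499-107710475 and chr9:107597674-107609241). It had 411 and 363 normalized counts in Ctrl and 363 and 404 in miR-128OE libraries, which overlap, with a log2 fold change of −0.02 (95% interval −0.28 to 0.24). The log2 ratio of *Sema3b* to *Sema3f* was −0.31 and −0.04 in Ctrl and −0.75 and −0.79 in miR-128OE libraries.

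*Sema3c*, which is needed for septation of the outflow tract, was the 1 member that rose. It had 478 and 318 normalized counts in Ctrl and 606 and 602 in miR-128OE libraries. The miR-128OE values were nearly equal and above both Ctrl values, whereas the Ctrl values differed from each other by more than the nearer of them did from the miR-128OE hearts. The log2 fold change was 0.58 (SE 0.16, 95% interval 0.23 to 0.94, adjusted p = 0.0212). The call was lost with total counts as the scaling (adjusted p = 0.0502), without WH9 (0.107), without WH10 (0.0864) and with the 1.5-fold requirement. The change was 0.93 without WH7 and 0.34 without WH8.

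*Sema3c* is the last of a run of class 3 genes on chromosome 5, after *Sema3d*, *Sema3a* and *Sema3e*, and is 3318 kb from the nearest of them. *Sema3d*, known for guiding endothelial cells to the pulmonary veins, had 199 and 113 normalized counts in Ctrl and 184 and 225 in miR-128OE libraries. *Sema3a*, a repellent of sympathetic axons, had 72.2 and 50.9 against 63.4 and 69.0. In both genes the groups overlapped and WH8 was the lowest library, and neither passed the test, with log2 fold changes of 0.35 and 0.08. *Sema3g*, a ligand from endothelium, had 293 and 424 against 337 and 310.4, with a log2 fold change of −0.13.

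Of the class 5 semaphorins, which carry thrombospondin-type repeats, *Sema5b* fell and *Sema5a* did not pass the test. *Sema5b* (chr16:35541154-35664261) had 62.2 and 98.9 normalized counts in Ctrl and 30.7 and 32.0 in miR-128OE libraries, from no more than 70 reads in any library. The groups did not overlap, but the Ctrl values lay further apart than the lower of them and the miR-128OE values. The log2 fold change was −1.33 (SE 0.30, 95% interval −2.01 to −0.65, adjusted p = 0.00975). It ranged from −1.65 to −0.98 when libraries were left out one at a time, and the call was lost without WH9 (adjusted p = 0.0715), without WH10 (0.0555) and with the 1.5-fold requirement (0.126).

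*Sema5a* had 413 and 314 normalized counts in Ctrl and 316 and 370.1 in miR-128OE libraries, which overlap, with a log2 fold change of −0.09 (95% interval −0.43 to 0.24). The log2 ratio of *Sema5b* to *Sema5a* was −2.73 and −1.67 in Ctrl and −3.36 and −3.53 in miR-128OE libraries.

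The membrane-bound ligands of classes 4, 6 and 7 held no call. None of the 5 tested class 4 and 4 class 6 members passed edgeR's quasi-likelihood test, DESeq2, or edgeR's likelihood ratio and exact tests, and 0 of them had an unadjusted p under 0.05. *Sema4d*, the ligand of *Plxnb1*, had 106 and 106 normalized counts in Ctrl and 119.8 and 124 in miR-128OE libraries. Its groups did not overlap, but at this level the log2 fold change of 0.20 (SE 0.17, 95% interval −0.19 to 0.58, adjusted p = 0.406) did not exceed its error. *Sema4c*, a ligand of *Plxnb2*, had 433 and 445 against 423 and 481, which overlap, with a log2 fold change of 0.05.

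*Sema4a* had 49.4 and 32.5 normalized counts in Ctrl and 20.8 and 32.0 in miR-128OE libraries, and its log2 fold change of −0.65 had a wide 95% interval of −1.44 to 0.14 (adjusted p = 0.188). *Sema4b* and *Sema4g* had log2 fold changes of 0.28 and −0.26. For these 3 genes the intervals hold both 0 and changes of 1.5-fold, so no difference was detectable at this depth.

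Class 6 semaphorins, which bind A-type plexins, covered a narrow range of −0.19 to 0.03. *Sema6d*, known for its part in ventricular wall formation through *Plxna1*, had 1349 and 1519 normalized counts in Ctrl and 1192 and 1318 in miR-128OE libraries. The groups did not overlap, and the log2 fold change was −0.19 (SE 0.09, 95% interval −0.40 to 0.02, adjusted p = 0.147). *Sema6a* was close between replicates, with 785 and 803 against 709.9 and 726, and had a log2 fold change of −0.14 (95% interval −0.33 to 0.04). *Sema6b* had a log2 fold change of −0.06.

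*Sema7a* had 938 and 1035 normalized counts in Ctrl and 1160 and 1104 in miR-128OE libraries. Both miR-128OE values were above both Ctrl values, and the log2 fold change was 0.20 (SE 0.09, 95% interval 0.01 to 0.39). Its unadjusted p was 0.0436 and its adjusted p 0.105, so it did not pass the test, and it was not called by DESeq2 or by the likelihood ratio and exact tests either.

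Counted by overlap alone, 4 members had both miR-128OE libraries above both Ctrl libraries (14.8%, against 33.7% of all tested genes) and 9 had both below (33.3%, against 34.4%). The other 14 overlapped. The share below was near that of all genes, and the share above was lower than it.

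The spread between the Ctrl libraries limited these comparisons for several ligands. The members' median absolute log2 ratio between replicates was 0.28 in the Ctrl pair and 0.11 in the miR-128OE pair, against 0.17 and 0.12 over all tested genes. Of the 27 tested members, 8 differed by more than 0.5 on the log2 scale between WH7 and WH8, and 1 did so between WH9 and WH10. *Sema6c* differed most, with 341 normalized counts in WH7 and 151 in WH8, and 260.4 and 257 in WH9 and WH10.

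**Figure D4:**
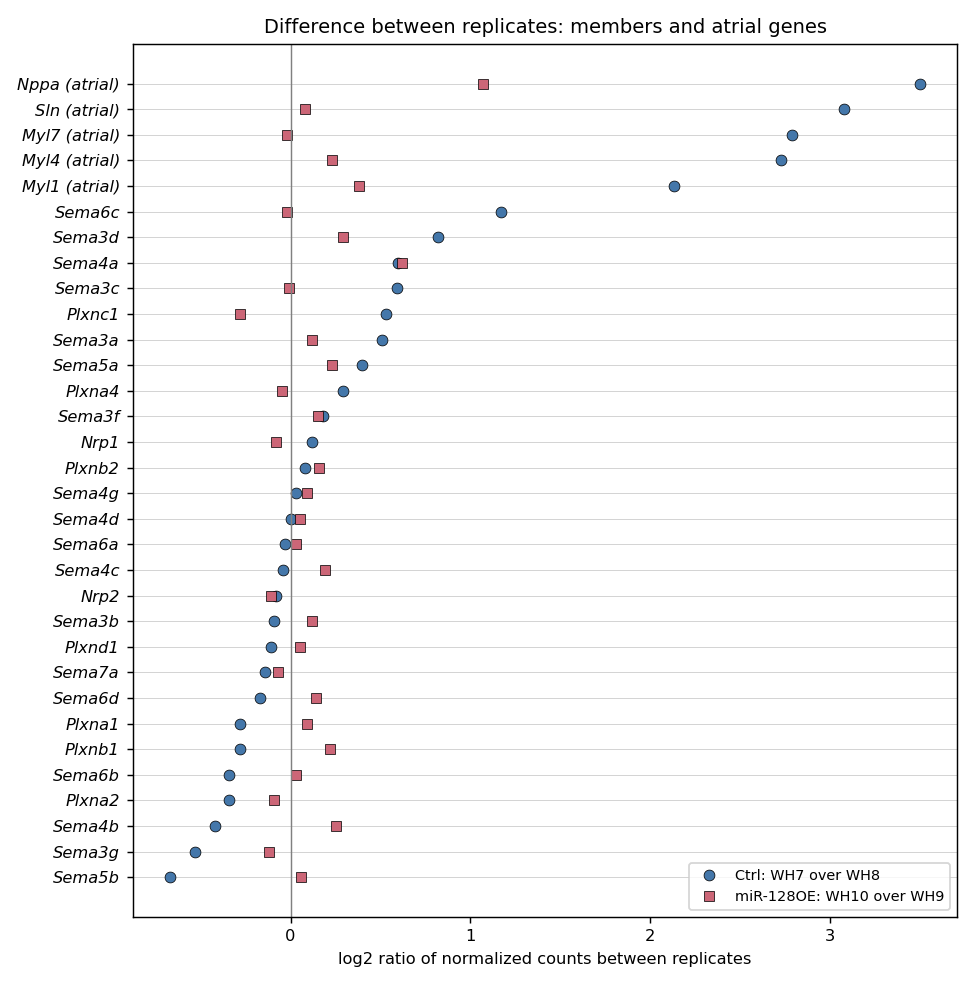
Log2 ratio between the replicates of a group for the 27 tested members and 5 atrial marker genes, in blue for Ctrl (WH7 over WH8) and in red for miR-128OE (WH10 over WH9). The atrial genes lie furthest right in the Ctrl pair, Sema6c lies at 1.17, Sema3d at 0.82 and Sema3c at 0.59, while the Ctrl ratios of Nrp1 at 0.12 and Plxnb1 at −0.28 are small beside their changes between groups.

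For *Sema6c* the direction rests on the choice of Ctrl library. With both, its log2 fold change was 0.03, whereas it was 0.77 without WH7 (adjusted p = 0.00235) and −0.40 without WH8 (adjusted p = 0.0269). *Sema3d* was called without WH7, with a log2 fold change of 0.86 (adjusted p = 0.00463). WH7 also had the higher sums of epicardial markers (132 CPM against 62.1 in WH8, with 70.7 and 79.4 in miR-128OE libraries) and of fibroblast markers (10485 against 6799, with 9335 and 10069). The part of atrial, epicardial or fibroblast RNA in these members' differences was not tested.

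Leaving out a Ctrl library added calls for 6 more members. Without WH7, *Sema3g* stood at −0.39 on the log2 scale (adjusted p = 0.0275), *Sema6d* at −0.27 (0.0301) and *Plxnd1* at −0.21 (0.0472), but without WH8 *Sema3g* stood at 0.15. Without WH8, *Sema4b* was at 0.50 (0.042), *Sema7a* at 0.27 (0.0273) and *Plxna1* at 0.36 (0.0164). *Nrp1* and *Plxnb1* were called in each of the 15 alternative fits. Their log2 fold changes ranged from −1.09 to −0.97 and from −1.52 to −1.24 when libraries were left out one at a time, so both changes were of similar size without either Ctrl library.

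Matches to the *miR-128* seed were read beside these changes as a description. A match was CACTGTGA (8mer), CACTGTG (7mer-m8) or ACTGTGA (7mer-A1) on the strand of the transcript in the longest annotated 3′UTR, and an 8mer was counted once although it contains both 7mers. Such a match was present in 10 of the 29 members (34.5%) and in 4175 of 13463 tested genes with a 3′UTR (31.0%). An 8mer was present in 3 members (10.3%) and in 6.03% of the tested genes. The members' 3′UTRs had a median length of 1606 bases against 1199 over the tested genes.

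Of the 4 lower members, *Plxnb1* held the 8mer shown above, and no match was found in the annotated 3′UTRs of *Nrp1*, *Sema3b* and *Sema5b*. *Sema3c*, the higher member, held none. The other members with an 8mer, *Plxna2* and *Sema6d*, did not pass the test, with log2 fold changes of 0.09 and −0.19. *Nrp2*, *Plxnc1* and *Sema7a* held 2 matches each, *Plxna4* held 3, and *Plxnd1*, *Sema6a* and the untested *Sema3e* held 1 each, and none of the tested ones passed. The GENCODE 3′UTR of *Nrp1* is short, at 549 bases, and the RefSeq gene extends past its end, so longer 3′UTR sequence of *Nrp1* was not searched.

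Proteins that work with semaphorins and plexins were read from lists of 88 partner genes, of which 86 were tested. Of these, 19 were higher (22.1%, against 16.5% of all tested genes) and 10 were lower (11.6%, against 15.0%), with a median log2 fold change of 0.07. The share of higher genes differed between the lists, and this difference was not tested. Of 10 proteases that cut semaphorins, plexins or their co-receptors, 4 were higher (40.0%, against 16.5% of all tested genes) and 6 did not pass the test. DESeq2 called 3 of them higher. None of them was lower by edgeR's quasi-likelihood test, by an unadjusted p under 0.05, or by DESeq2. By the first of these, 15.0% of all tested genes were lower, and 4 of the 10 proteases had a log2 fold change below 0. The list is too short for its share of higher genes or the absence of lower calls to be read as a result.

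Among the proteases, *Pcsk6*, a furin-like convertase, had 465 and 499 normalized counts in Ctrl and 931 and 867 in miR-128OE libraries, with a log2 fold change of 0.90 (SE 0.09, adjusted p = 0.000203). *Adamts1*, a protease known to cleave *Sema3c* protein, had 493 and 411 against 880.2 and 976, with a log2 fold change of 1.03 (SE 0.11, adjusted p = 0.000236). In both genes each miR-128OE library was well above each Ctrl library, and both were called in each of the 15 alternative fits. *Furin* itself, which activates class 3 semaphorins, was higher by 0.57 on the log2 scale (SE 0.11, adjusted p = 0.00509), a call lost without WH9 (adjusted p = 0.0661). It is named after its values were seen, as are all further partner genes described other than *Dag1*, *Erbb2* and *Rasa1*.

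Among 33 co-receptors and their ligands, 31 were tested. Of these, 2 were higher (6.45%, against 16.5% of all tested genes) and 3 were lower (9.68%, against 15.0%). *Dag1*, which encodes dystroglycan, a link between matrix and cytoskeleton, had 1776 and 1555 normalized counts in Ctrl and 3103 and 2859 in miR-128OE libraries (log2 fold change 0.84, SE 0.09, adjusted p = 0.000279). *Erbb2*, a receptor tyrosine kinase that associates with *Plxnb1*, had 520.3 and 557 against 402 and 371 (−0.48, SE 0.10, adjusted p = 0.00757). The call of *Erbb2* was lost without WH9 (adjusted p = 0.0551) and without WH10 (0.0985). *Met*, another kinase known to join *Plxnb1*, had 70.4 and 59.4 against 52.5 and 50.5 and did not pass the test (log2 fold change −0.35, adjusted p = 0.308). *Mst1r*, a further kinase of this list, had 68.6 and 62.2 against 79.2 and 70.7 and did not pass either (0.19, adjusted p = 0.557). *Itgb1*, the integrin chain that *Sema7a* engages, was higher by 0.54 (adjusted p = 0.00209).

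The VEGF receptors and ligands that share *Nrp1* did not pass the test. *Kdr* had 2161 and 2513 normalized counts in Ctrl and 2521 and 2359 in miR-128OE libraries, and *Vegfa* had 4106 and 5532 against 4552 and 5024. Both overlapped between groups, with log2 fold changes of 0.06 and −0.01, whose signs changed under other settings. For *Flt1* the log2 fold change was −0.10 (adjusted p = 0.358).

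**Figure D5:**
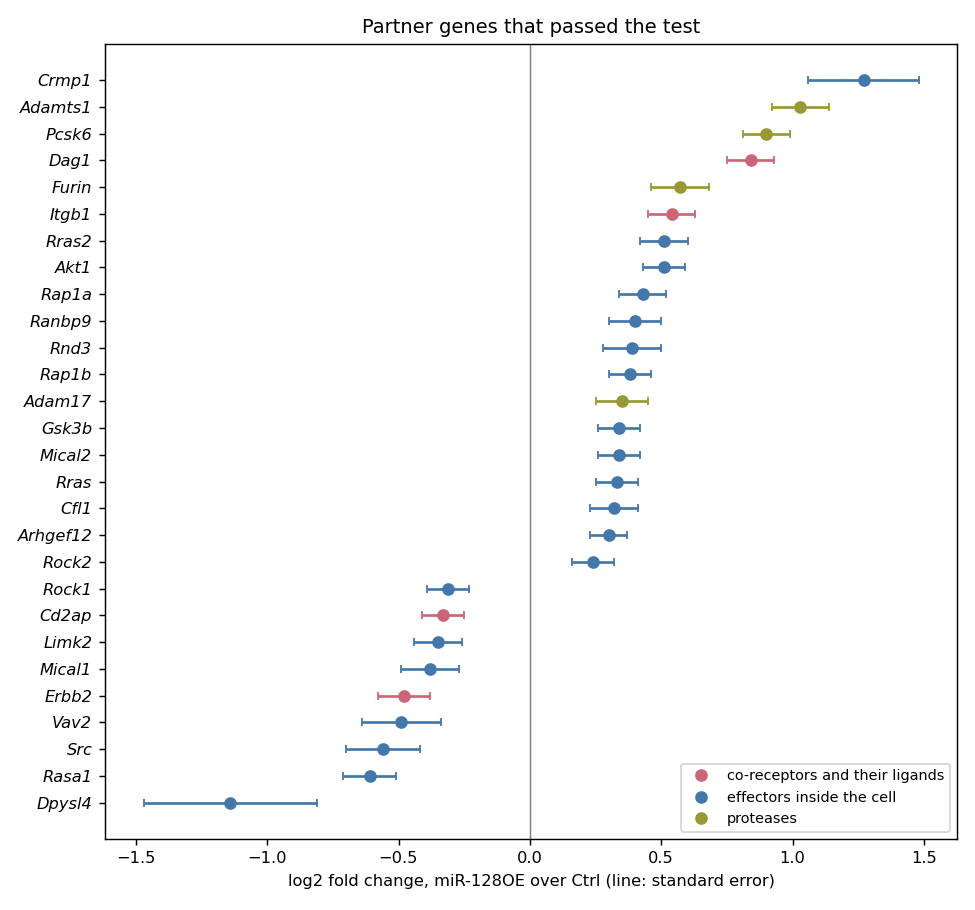
Log2 fold change of miR-128OE over Ctrl hearts with its standard error for 28 of the 29 partner genes that passed the test, coloured by list, in order of size. The 4 proteases all lie right of 0, from Adam17 at 0.35 to Adamts1 at 1.03, while co-receptors and effectors lie on both sides, from Dpysl4 at −1.14 to Crmp1 at 1.27.

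Of 45 effectors inside the cell, 13 were higher (28.9%, against 16.5% of all tested genes) and 7 were lower (15.6%, against 15.0%). The share of lower effectors was thus near that of all genes. *Rasa1*, a GTPase-activating protein for Ras, had 1191 and 1466 normalized counts in Ctrl and 871 and 862 in miR-128OE libraries (log2 fold change −0.61, SE 0.10, adjusted p = 0.00251). Of the 5 collapsin response mediators, which pass on *Sema3a* signals in neurons, 1 was higher, 1 was lower and 3 did not pass the test, namely *Dpysl2*, *Dpysl3* and *Dpysl5* with log2 fold changes of 0.12, 0.04 and 0.85. *Crmp1* had 54.0 and 43.8 against 117 and 122 (log2 fold change 1.27, adjusted p = 0.00227) and *Dpysl4* had 38.4 and 42.4 against 16.8 and 19.3 (−1.14, adjusted p = 0.026), the latter not called by DESeq2 (adjusted p = 0.147) or without any 1 of the libraries (0.0514 to 0.178). *Arhgef12*, a guanine exchange factor that binds B-type plexins, was higher by 0.30 (adjusted p = 0.0138), whereas its relative *Arhgef11* stood at −0.35 on the log2 scale (adjusted p = 0.0585). *Rras*, a target of the plexin GTPase-activating domain, was higher by 0.33 (adjusted p = 0.0172). The calls of *Arhgef12* and *Rras* were lost without WH9 (adjusted p = 0.128 and 0.126) and without WH10 (0.0992 and 0.112), with total counts as the scaling (0.0615 and 0.0733) and with the 1.5-fold requirement, and that of *Rras* also with the GC and length offset (0.0765).

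The other marker lists place these values in the tissue. CM markers, which define the labelled tissue, were abundant at 48877 to 53109 CPM in Ctrl and 60233 to 61137 in miR-128OE hearts, with 4 of 9 higher and 2 lower. Mural markers summed to 1920 to 1947 against 2516 to 2732, with 3 of 8 higher and 1 lower. Their median log2 fold change was 0.05, with 4 genes above 0 and 4 below. *Acta2*, a mural marker named after its values were seen, had mean normalized counts of 7098 in Ctrl and 13617 in miR-128OE libraries. The fibroblast sums overlapped between groups, with 2 of 10 markers higher (1 by DESeq2) and 0 lower. By DESeq2 and by an unadjusted p under 0.05, 0 were lower also. Beside these counts, 16.5% of all tested genes were higher and 15.0% lower.

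Markers of other cells were low. Neural and Schwann cell markers, in which many semaphorins were first studied, summed to 49.1 to 55.2 CPM in Ctrl and 40.8 to 43.1 in miR-128OE hearts, with 1 of 7 tested genes higher and 1 lower. Macrophage markers summed to 108 to 152 against 109 to 111, with 1 of 9 lower, and lymphatic endothelial markers to 81.8 to 94.4 against 81.4 to 85.2, with 1 of 6 (*Ccl21a*) at 0 in all libraries. Lymphocyte markers summed to 12.2 to 14.2 against 14.4 to 14.9. Erythroid markers summed to 32.9 to 45.6 against 72.4 to 79.6. Brown fat markers summed to 33.2 to 33.4 against 54.3 to 71.4, with 3 of 4 tested genes higher. DESeq2 called 1 of these 4 higher, and 16.5% of all tested genes were higher by edgeR's quasi-likelihood test. *Ucp1*, the first of the brown fat list, had 51.2 and 4.24 normalized counts in Ctrl and 250.5 and 159 in miR-128OE libraries. In the lymphatic, lymphocyte, epicardial and atrial lists no gene passed edgeR's quasi-likelihood test or DESeq2, and 1, 0, 2 and 1 genes, in this order, had an unadjusted p under 0.05. The part of these cell types in the members' changes was not tested.

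Annotated overlaps limit 7 members, since the handling of strand in the counting is not given in the sources used here. *Plxnb1* shares exonic sequence with *Gm7628* on the opposite strand, and *Plxna1*, *Plxna4* and *Sema4c* also have an antisense neighbour. *Nrp1* and *Sema4a* contain the miRNA genes *Mir1903* and *Mir7011*, which had 0 counts in every library, and *Plxnc1* overlaps *Gm48718*.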

How the data were processed

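RNA-seq of whole mouse hearts at P7 was analyzed in 2 Ctrl and 2 miR-128OE libraries, grouped by the genotype labels. The authors filtered reads, aligned them to mm10 with TopHat2, counted those on known genes and deposited raw counts per gene and library. Gene models, strand and multi-mapping rules are not given in the sources used here.

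Members and lists were chosen with earlier results of these data known. Entrez identifiers were matched to symbols and positions in RefSeq on GRCm38.p6 (24374 of 24454). Genes passing filterByExpr (minimum 10 counts, total 15) were scaled by TMM and tested with edgeR 4.0.16 in R 4.3.3 by the quasi-likelihood test without covariates, with Benjamini-Hochberg adjustment over 14266 genes. The standard error is the log2 fold change over the square root of F, and intervals use 9.44 degrees of freedom. Normalized counts were scaled with TMM to the average effective library size. CPM use the same factors, and levels per length divide CPM by the union of exons of protein-coding GENCODE M21 transcripts, a definition set after the lengths were seen, since retained introns inflated the union over all transcripts. Seed matches were found in the longest 3′UTR of those transcripts with Python 3.11.15.

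The test was tried on simulated counts. The share of false calls stayed under the threshold when dispersions were drawn from the fitted trend and exceeded it when they were drawn gene by gene. Named genes are all members, and of the partner lists the 3 higher and 3 lower genes with the smallest p-value. A gene under this rule is not reported here. *Pecam1*, *Cdh5*, *Nppa* and *Ucp1* stand at the head of their marker lists, and *Ccl21a* is named for its counts of 0. Other genes of the partner and marker lists are said to be named after their values were seen. Alternatives were DESeq2 1.42.0, edgeR's likelihood ratio and exact tests, other scalings (DESeq2 size factors, upper quartile, total counts, autosomal genes alone), other filters, a required 1.5-fold change, a loess offset for GC content and length (span 0.5), other site and length definitions, and each library left out in turn.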

Additional observations from a re-analysis of the deposited data

How the results depend on the processing

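*Nrp1* and *Plxnb1* kept their direction and call in all 15 alternative fits. Over 43 named genes and these fits, 567 of 645 log2 fold changes kept their direction and side of the threshold, 35 lost the call, 10 gained one in the same direction and 33 changed sign.

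With total counts as the scaling, 0 members were higher and 6 lower, with *Sema6d* (adjusted p = 0.0422) and *Plxnd1* (0.0353) gaining calls, and 12 partner genes were higher and 16 lower. That scaling moved the median of all genes to −0.11 and the higher share of all calls from 52.3% to 35.3%, so changes under it are relative to that shift. With a required 1.5-fold change, 0 members were higher and 2 lower, 3 partner genes were higher and 0 lower, and 249 of all genes were higher and 216 lower, since this is a stricter threshold. With DESeq2, 5 partner genes and 1317 of all genes were lower. With upper-quartile factors 16 partner genes were lower. The members' median log2 fold change was −0.10 with upper-quartile factors, −0.16 with total counts and 0.00 with the GC and length offset. With 8mer matches alone, 3 members held a match. The cause of these shifts was not tested.

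When libraries were left out one at a time, 0 to 4 members were higher and 2 to 7 lower, 7 to 25 partner genes were higher and 1 to 12 lower, 897 to 2654 of all genes were higher and 667 to 2384 lower, and the members' median was −0.10 to −0.01. In these fits the lone library of a group is assumed to vary like the other group. Without WH9, 0 members were higher and 2 lower, without WH7 3 and 7, without WH8 4 were higher and without WH10 0. Of all genes, 897 were higher and 667 lower without WH9, and 1265 and 1020 without WH10.

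The log2 fold changes that changed sign, in genes that did not pass the test, were as follows. With total counts they were −0.04 for *Plxnb2*, −0.01 for *Plxna2*, −0.02 for *Sema3a*, −0.05 for *Sema4c*, −0.07 for *Sema6c* and −0.04 for *Kdr*. With upper-quartile factors they were 0.00 for *Sema4c* and −0.02 for *Sema6c*. With the GC and length offset they were 0.06 for *Nrp2*, 0.01 for *Sema5a*, 0.00 for *Plxna4* and *Flt1*, and 0.03 for *Vegfa*. *Vegfa* was at 0.00 with DESeq2, autosomal genes alone and no low-count filter. Values of 0.00 are changes of sign below the rounding.

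Leaving out libraries turned the sign for *Plxnb2* (0.00 to 0.15), *Nrp2* (−0.08 to 0.03), *Plxna2* (−0.08 to 0.26), *Sema3a* (−0.12 to 0.38), *Sema3f* (−0.09 to 0.08), *Sema4c* (−0.04 to 0.15), *Sema5a* (−0.26 to 0.13), *Sema6b* (−0.23 to 0.11), *Sema6c* (−0.40 to 0.77), *Sema3g* (−0.39 to 0.15), *Plxna4* (−0.24 to 0.04), *Kdr* (−0.04 to 0.18) and *Vegfa* (−0.21 to 0.23).

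No paired analysis was possible because the labels give no replicate numbers that the groups share. With 2 libraries a group, an exact permutation test cannot give a p under 0.333, and members under about 100 normalized counts, such as *Sema3a* and *Sema4a*, had intervals wider than a 1.5-fold change.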
